A study of Gallus gallus with 8 samples.

Results

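An RNA-Seq table of chicken embryo dorsal skin holds 14642 genes. Of those that code for proteoglycans, matrilins and link proteins, 7 are described here across tissue and stage. They are ACAN (aggrecan), HAPLN1 (link protein), MATN1 and MATN3 (matrilins), and DCN (decorin), LUM (lumican) and PODN (podocan). They were picked by name, with earlier results of these data known. The study screened skin transcriptomes around the time when feather buds begin to elongate. Epithelium and mesenchyme were pulled apart in calcium- and magnesium-free saline, and 2 biological replicates of each tissue and stage, labelled batch I and batch II, were sequenced as 50-base single-end reads.

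The 8 libraries form 4 groups of 2, which are mesenchyme at Hamburger and Hamilton stage 35 (H&H 35, embryonic day 9), mesenchyme at H&H 31 (embryonic day 7), epithelium at H&H 35 and epithelium at H&H 31. The embryos came from White leghorn eggs, no transgene or treatment is named for any group, and the labels do not say how many embryos went into a library. Whole tissue was sequenced, so fewer cells of a type and less RNA per cell cannot be told apart.

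Proteoglycans are secreted or membrane proteins that carry long sulfated sugar chains. Aggrecan is the large proteoglycan of cartilage, where link protein fastens it to hyaluronan and matrilins bridge it to collagen fibrils. Decorin and lumican are small leucine-rich proteoglycans that bind collagen fibrils and limit their thickness, and decorin is a classical product of dermal fibroblasts. Podocan belongs to the same small leucine-rich family.

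Values are RPKM, the reads of a gene divided by its transcript length and by the library's mapped reads. This allows for gene length and depth but not for differences in the makeup of libraries. The RPKM summed over all genes ranged from 319873 to 367121 between libraries, and some calls changed under other scalings. Differences are on the scale of log2(RPKM + 1) and come from limma, with Benjamini-Hochberg adjustment of p across 11155 genes, those at 1 RPKM or more in 2 libraries or more. A gene was called at an adjusted p under 0.05. HAPLN1, DCN, LUM and PODN entered the test. DCN, LUM and PODN were above 1 RPKM in every library and HAPLN1 in all but H&H 35 epithelium I. ACAN, MATN1 and MATN3 were too low for it and are given by their values.

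Each library had 22050712 to 33620383 alignments, and replicates correlated at r of 0.988 to 0.994 across genes. The tissues matched their labels. CDH1 (E-cadherin, an epithelial adhesion protein) averaged 1.04 RPKM in H&H 35 mesenchyme and 104 RPKM in H&H 35 epithelium, and VIM (vimentin of mesenchymal cells) averaged 1359.8 RPKM in H&H 35 mesenchyme and 44.1 RPKM in H&H 35 epithelium. The 8 dermal fibroblast markers were 2.14 to 274 times as high in mesenchyme as in epithelium at H&H 35, and 1.36 to 851 times as high at H&H 31. A single library stood apart. In H&H 35 mesenchyme I, 5 skeletal muscle genes summed to 26.4 RPKM, against 2.03 RPKM in H&H 35 mesenchyme II and 2.17 to 2.34 RPKM in H&H 31 mesenchyme.

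DCN was by far the most abundant of the 7 genes in epithelium and shared the top with LUM in mesenchyme. DCN and LUM made up 52.2% and 43.8% of the summed RPKM of the 7 genes in H&H 35 mesenchyme, and 43.6% and 36.8% in H&H 31 mesenchyme. In epithelium DCN alone made up 96.8% at H&H 35 and 92.8% at H&H 31. PODN took 19.0% of the sum in H&H 31 mesenchyme and at most 1.65% in the other groups. At the other end, ACAN, MATN1 and MATN3 stayed under 1.13 RPKM in every library.

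**Figure D1:**
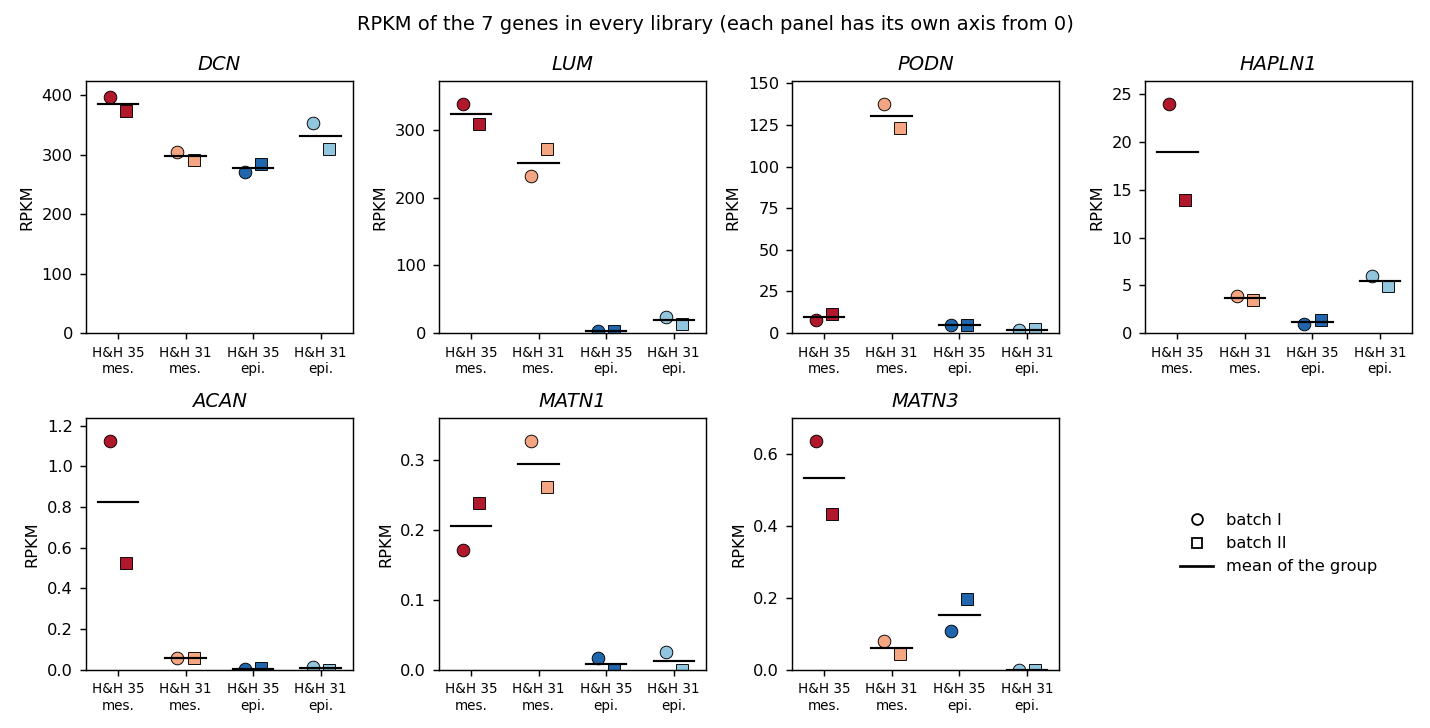
RPKM of each of the 7 genes in the 8 libraries, with batch I as circles, batch II as squares and the group mean as a line; every panel has its own linear axis from 0. DCN is high in all 4 groups, LUM in mesenchyme, PODN in mesenchyme of H&H 31 and HAPLN1 in mesenchyme of H&H 35, while ACAN, MATN1 and MATN3 lie at or below 1.12 RPKM.

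HAPLN1 changed with stage in opposite directions in the tissues, up in mesenchyme and down in epithelium. It had 24.0 and 14 RPKM in H&H 35 mesenchyme I and II, against 3.88 and 3.49 RPKM in H&H 31 mesenchyme I and II. The H&H 35 libraries were the higher ones in mesenchyme, without overlap, and batch I was well above batch II at that stage. The means were 19.0 ± 7.09 RPKM in H&H 35 mesenchyme and 3.68 ± 0.274 RPKM in H&H 31 mesenchyme (SD, n = 2 each), a ratio of 5.16. The log2 difference was 2.05 ± 0.22 (SE, limma adjusted p = 0.000185), and 2.36 within batch I and 1.74 within batch II.

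In epithelium HAPLN1 had 0.920 and 1.39 RPKM at H&H 35, against 6.02 and 4.94 RPKM at H&H 31. The order was the reverse of that in mesenchyme, with the H&H 35 libraries lower and again no overlap. The mean at H&H 31 was 4.75 times the mean at H&H 35, and the log2 difference of H&H 35 minus H&H 31 was -1.59 ± 0.22 (SE, limma adjusted p = 0.000756). It was -1.87 within batch I and -1.32 within batch II.

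The stage change of HAPLN1 in mesenchyme exceeded that in epithelium by 3.64 ± 0.32 on the log2 scale (SE, limma adjusted p = 5.24e-05). At H&H 35 it was 16.5 times as high in mesenchyme as in epithelium, a log2 difference of 3.18 (limma adjusted p = 2.23e-06). At H&H 31 the mesenchyme libraries lay below the epithelium libraries, and this difference of -0.47 did not pass the test (limma adjusted p = 0.108). It passed with only the 4 libraries of H&H 31 fitted (adjusted p = 0.0136), and also when either library of H&H 35 mesenchyme was left out (adjusted p = 0.0225 without I and 0.0220 without II). Levels were thus highest in mesenchyme at H&H 35 and lowest in epithelium at H&H 35, with both tissues of H&H 31 between them and not told apart by the test.

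The skeletal muscle genes were high in the same library in which HAPLN1 was highest. MYOD1, the myogenic transcription factor, had 2.37 RPKM in H&H 35 mesenchyme I and 0.114 RPKM in H&H 35 mesenchyme II, and ACTC1, an actin of striated muscle, had 11 and 0.0784 RPKM in these libraries. Their part in the HAPLN1 level was not tested. Without H&H 35 mesenchyme I the HAPLN1 difference in mesenchyme was 1.68 (limma adjusted p = 0.000386).

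PODN showed the steepest fall among the tested members. It had 7.91 and 11.2 RPKM in H&H 35 mesenchyme I and II, against 137 and 123 RPKM in H&H 31 mesenchyme I and II. Both H&H 35 libraries were far below both H&H 31 libraries, and the gap was much wider than that between replicates. The means were 9.53 ± 2.29 RPKM in H&H 35 mesenchyme and 130.3 ± 10.1 RPKM in H&H 31 mesenchyme (SD, n = 2 each), so that the H&H 31 mean was 13.7 times the H&H 35 mean. The log2 difference was -3.66 ± 0.15 (SE, limma adjusted p = 9.58e-07).

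In epithelium PODN was low and rose. It had 4.79 and 4.70 RPKM at H&H 35, against 1.80 and 2.19 RPKM at H&H 31. The H&H 35 libraries were the higher ones with no overlap, a ratio of means of 2.37 and a log2 difference of 0.94 ± 0.15 (SE, limma adjusted p = 0.00129). Subtracting the epithelial from the mesenchymal stage change gave -4.60 ± 0.21 (SE, limma adjusted p = 3.82e-06), the only negative value among the 4 tested members.

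The tissue contrast of PODN narrowed with stage. At H&H 31 it was 65.2 times as high in mesenchyme as in epithelium (log2 difference 5.45, limma adjusted p = 6.53e-09), whereas at H&H 35 it was 2.01 times as high (log2 difference 0.86, limma adjusted p = 0.000720). Mesenchyme of H&H 31 was highest, followed by mesenchyme of H&H 35, epithelium of H&H 35 and epithelium of H&H 31, and each neighbouring pair in this order was called. Reads recovered for PODN numbered 693 and 983 in H&H 35 mesenchyme and 8218 and 9198 in H&H 31 mesenchyme, so counting error was small beside these differences.

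LUM was far higher in mesenchyme than in epithelium at both stages, and fell in epithelium. It had 338 and 309 RPKM in H&H 35 mesenchyme I and II, against 232 and 272 RPKM in H&H 31 mesenchyme I and II. The H&H 35 libraries were higher without overlap, but the difference of 0.36 ± 0.21 (SE) did not pass the test (limma adjusted p = 0.200). It passed when only the 4 mesenchyme libraries were fitted (adjusted p = 0.0488) and without H&H 31 epithelium I or II (adjusted p = 0.0234 and 0.0233), the pair of libraries in which LUM varied most on the log2 scale.

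In epithelium LUM had 3.31 and 3.18 RPKM at H&H 35, against 23.8 and 13.4 RPKM at H&H 31. The H&H 31 libraries were higher by a factor of 5.74 in the mean but differed from each other. The log2 difference of H&H 35 minus H&H 31 was -2.16 ± 0.21 (SE, limma adjusted p = 9.06e-05), and -2.53 within batch I and -1.78 within batch II. The stage change in mesenchyme exceeded that in epithelium by 2.52 ± 0.29 (SE, limma adjusted p = 0.000234).

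Mesenchyme held 99.8 times the LUM of epithelium at H&H 35 (log2 difference 6.26, limma adjusted p = 1.86e-08) and 13.5 times at H&H 31 (log2 difference 3.74, limma adjusted p = 4.55e-07). Some dermal fibroblast genes fell in epithelium as well. FN1 (fibronectin) averaged 47.0 RPKM in H&H 35 epithelium and 207 RPKM in H&H 31 epithelium (log2 difference -2.13, limma adjusted p = 3.22e-06), and VIM averaged 44.1 RPKM in H&H 35 epithelium and 102.7 RPKM in H&H 31 epithelium (log2 difference -1.20, limma adjusted p = 4.18e-05). Of the 8 dermal fibroblast markers 2 rose and 2 fell in epithelium, and their summed level was 482 to 521 RPKM at H&H 35 and 754 to 821 RPKM at H&H 31. None of them was at 0. The collagen gene COL1A2, FN1 and VIM made up most of the sum, and COL1A2 averaged 381 RPKM at H&H 35 and 449 RPKM at H&H 31. The 2 that rose were PRRX1, a transcription factor of limb and dermal mesenchyme, and CDERMO-1 (TWIST2). PRRX1 had 0.857 RPKM in H&H 35 epithelium and 0.173 RPKM in H&H 31 epithelium, and CDERMO-1 had 1.84 and 0.805 RPKM. TWIST1 (0.323 and 0.0939 RPKM) and PDGFRA (1.19 and 0.838 RPKM) also averaged higher at H&H 35 but did not pass (limma adjusted p = 0.0999 and 0.124). The part of mesenchymal cells in the epithelial LUM level was not tested.

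DCN was abundant in both tissues. It had 398 and 374 RPKM in H&H 35 mesenchyme I and II, against 305 and 292 RPKM in H&H 31 mesenchyme I and II. The H&H 35 libraries were higher with no overlap, by a ratio of 1.29. The log2 difference of 0.37 ± 0.089 (SE) passed the test (limma adjusted p = 0.0105), but not without H&H 31 mesenchyme II (0.34, adjusted p = 0.0751).

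In epithelium DCN had 271 and 285 RPKM at H&H 35, against 353 and 309 RPKM at H&H 31. The H&H 35 libraries were lower with no overlap, yet the difference of -0.25 ± 0.089 (SE) missed the threshold (limma adjusted p = 0.0602). It passed after scaling the libraries to an equal sum (-0.36, adjusted p = 0.0145), after quantile normalization (-0.43, adjusted p = 0.0144) and after median-ratio scaling (-0.29, adjusted p = 0.0406). The stage change in mesenchyme exceeded that in epithelium by 0.62 ± 0.13 (SE, limma adjusted p = 0.00445).

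Between tissues DCN was 1.39 times as high in mesenchyme as in epithelium at H&H 35 (log2 difference 0.47, limma adjusted p = 0.00131). At H&H 31 the ratio was 0.901 and the difference of -0.15 did not pass the test (limma adjusted p = 0.188). In every library DCN ranked between 105 and 172 from the top of the table. Epithelium thus held 72.1% of the mesenchymal DCN mean at H&H 35 and 111% at H&H 31, while it held 1.0% and 7.38% of the LUM mean and 0.379% and 0.126% of the PRRX1 mean. Among the 8 dermal fibroblast markers COL1A2, a chain of type I collagen, had the epithelial share nearest to DCN at H&H 35 (46.7%), and FN1 at H&H 31 (73.4%). Whether cells of the mesenchyme add to the epithelial DCN level was not tested.

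**Figure D2:**
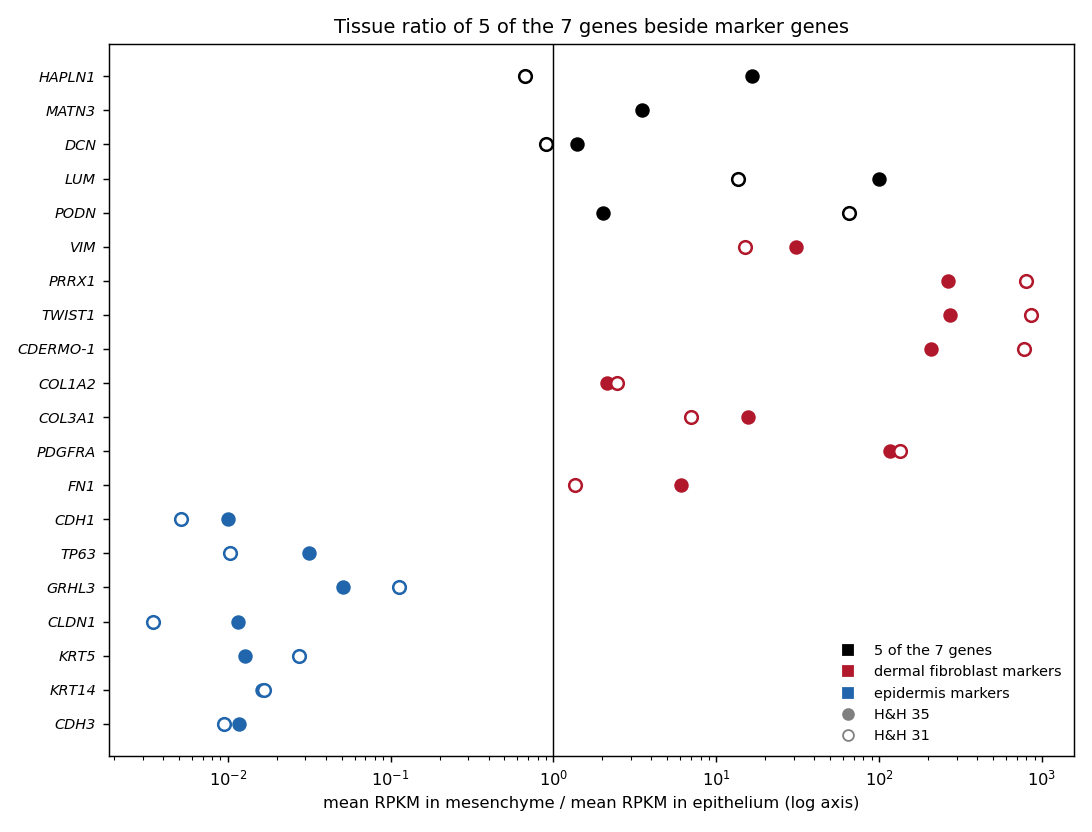
Ratio of the mean RPKM in mesenchyme to that in epithelium on a log axis, with H&H 35 filled and H&H 31 open, for 5 of the 7 genes (black), 8 dermal fibroblast markers (red) and 7 epidermal markers (blue). ACAN and MATN1 at both stages and MATN3 at H&H 31 are left out because epithelium gave 2 or fewer reads; DCN sits at 1.39 and 0.901, near equality, while LUM reaches 99.8 at H&H 35 and PODN 65.2 at H&H 31.

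In the count of calls, 3 of the 4 tested members passed in the stage comparison of mesenchyme, against 39.8% of all 11155 genes. In epithelium 3 of 4 passed, against 34.4%. Between tissues 4 of 4 passed at H&H 35, where 66.2% of all genes did, and 2 of 4 at H&H 31, where 57.4% did. All 4 passed in the comparison of the stage changes, against 42.4% of all genes. Among all genes, 18.2% were called higher and 21.6% lower by stage in mesenchyme, 18.6% higher and 15.9% lower by stage in epithelium, and 19.4% higher and 23.0% lower in the comparison of stage changes. Mesenchyme was called higher than epithelium in 29.1% and lower in 37.1% at H&H 35, and higher in 29.7% and lower in 27.7% at H&H 31. The libraries of the groups did not overlap for 4 of 4 tested members in each of these comparisons of stage or tissue, and this was so for 70.5% of all genes by stage in mesenchyme, 69.0% by stage in epithelium, 81.4% by tissue at H&H 35 and 81.7% by tissue at H&H 31. With so many genes called everywhere and 4 genes tested, these counts say little about the members as a set. Of all calls in epithelium 53.9% were higher at H&H 35, or 38.5% after scaling to an equal sum, and in the comparison of stage changes 45.8% were higher, or 59.5% after that scaling.

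**Figure D3:**
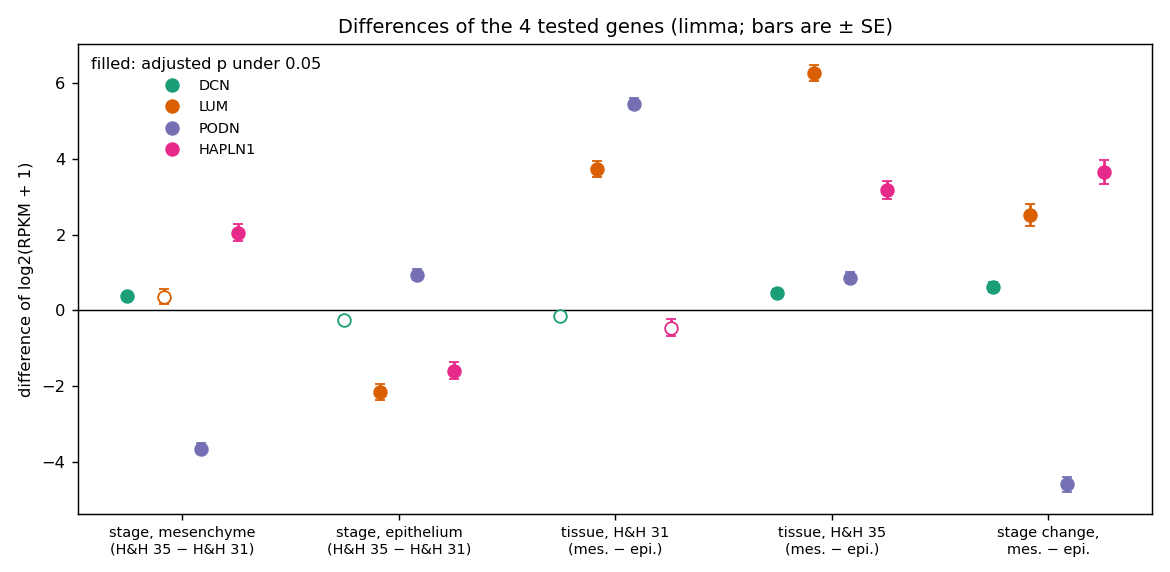
Differences of log2(RPKM + 1) of the 4 tested genes in the 5 comparisons, with bars of 1 SE from limma; filled points passed an adjusted p of 0.05 and open points did not. HAPLN1 lies at 2.05 in mesenchyme and -1.59 in epithelium, and PODN at -3.66 and 0.94.

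ACAN, the core protein of aggrecan, was near the floor of detection except in H&H 35 mesenchyme. It had 1.12 and 0.525 RPKM in H&H 35 mesenchyme I and II, against 0.06 and 0.0599 RPKM in H&H 31 mesenchyme I and II. In epithelium it had 0.00505 and 0.00619 RPKM at H&H 35, against 0.0153 RPKM in batch I and 0 in batch II at H&H 31. The H&H 35 mesenchyme libraries stood above the other 6, and batch I was well above batch II among them.

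Because RPKM values of low genes move in steps of 1 read, the reads behind them could be recovered for MATN1 and MATN3. ACAN did not fall on such steps in all libraries, so its smallest value above 0 was taken as 1 read and the others were rounded. Its H&H 35 mesenchyme values lay up to 0.379 from a whole number. On that basis ACAN rested on 220 and 103 reads in H&H 35 mesenchyme I and II (95% exact Poisson intervals 192 to 251 and 84.1 to 125). In H&H 31 mesenchyme I and II it rested on 8 and 10 reads (3.45 to 15.8 and 4.8 to 18.4). The intervals of the stages did not overlap, nor did those of the H&H 35 replicates. The pooled ratio of H&H 35 to H&H 31 mesenchyme was 13.7 (8.55 to 23.5 by counting error alone). It was 8.73 without H&H 35 mesenchyme I (5.26 to 15.3) and 18.8 without H&H 35 mesenchyme II (11.6 to 32.2), so its size depended on which replicate was used. Epithelium held 2 reads at each stage over both libraries, so that the ratio of H&H 35 mesenchyme to H&H 35 epithelium was 148 with a counting interval of 40.7 to 1228. ACAN was not in the main test. With no filter on low values it was called in mesenchyme (log2 difference 0.76, limma adjusted p = 0.00942), where 29.6% of 14642 genes were. The difference between its stage changes in mesenchyme and epithelium was then 0.77 (adjusted p = 0.0286), and 32.2% of genes passed. Both p-values rest on a spread pooled over the 4 groups. The SD of ACAN was 0.423 RPKM in H&H 35 mesenchyme and at most 0.0108 RPKM in the other groups. The pooled spread is thus narrower than that of the H&H 35 mesenchyme libraries, and these calls are weak.

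Of the 7 genes, ACAN, HAPLN1, MATN3, DCN and LUM were each highest in H&H 35 mesenchyme I, the library with the skeletal muscle genes, whose part in these levels was not tested. Without it the log2 difference of ACAN in mesenchyme was 0.52, and that of DCN was 0.33 (limma adjusted p = 0.0487).

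MATN3 was likewise highest in H&H 35 mesenchyme, at 0.636 and 0.434 RPKM in batches I and II, against 0.0799 and 0.0426 RPKM in H&H 31 mesenchyme. In epithelium it had 0.108 and 0.198 RPKM at H&H 35 and was at 0 in both H&H 31 libraries. The stages did not overlap in either tissue. Mesenchyme gave 35 and 24 reads at H&H 35 and 3 and 2 reads at H&H 31, and epithelium gave 6 and 9 reads at H&H 35. Over both libraries this was 15 reads in H&H 35 epithelium against 0 in H&H 31 epithelium, for which the 95% exact counting interval of the ratio began at 2.91. Without the filter MATN3 was called in mesenchyme (log2 difference 0.53, limma adjusted p = 0.00333) and not in epithelium (0.20, adjusted p = 0.0894), where 25.9% of genes passed.

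MATN1, also known as cartilage matrix protein, differed between tissues. It had 0.172 and 0.239 RPKM in H&H 35 mesenchyme I and II, against 0.327 and 0.262 RPKM in H&H 31 mesenchyme I and II, which were 10 and 14 reads against 13 and 13 reads. The counting intervals of all 4 libraries overlapped, and the pooled ratio of H&H 35 to H&H 31 was 0.706 (0.388 to 1.28). A stage difference was therefore not detectable at this depth. In epithelium each stage held 1 read in batch I and 0 in batch II, and the ratio of mesenchyme to epithelium was 22 at H&H 35 (3.59 to 905) and 25.3 at H&H 31 (4.15 to 1037). Without the filter MATN1 was called between tissues at H&H 35 (0.26, limma adjusted p = 0.00322) and H&H 31 (0.35, adjusted p = 0.000912), as were 54.8% and 47.3% of genes.

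**Figure D4:**
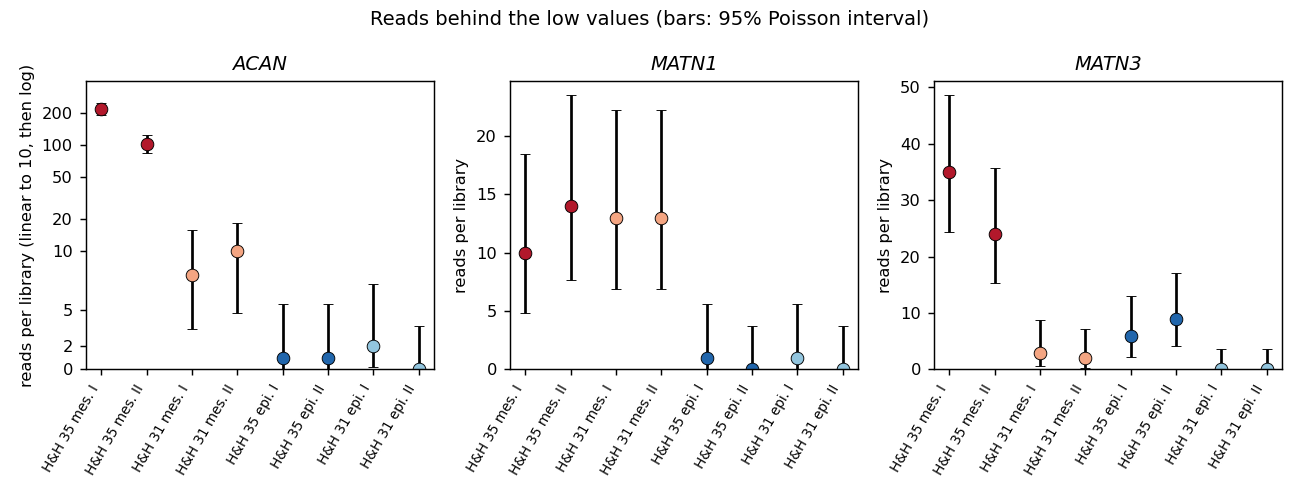
Reads per library behind the RPKM of ACAN, MATN1 and MATN3, with 95% exact Poisson intervals as bars; the ACAN axis is linear up to 10 reads and logarithmic above. ACAN reaches 220 and 103 reads in H&H 35 mesenchyme against 10 or fewer elsewhere, MATN3 35 and 24, and MATN1 10 to 14 in all mesenchyme libraries.

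Other cartilage genes moved both ways. Of 9 tested, 4 rose and 3 fell in H&H 35 mesenchyme, with 3 rising after scaling to an equal sum and 2 after quantile normalization, and 2 rose and 2 fell in H&H 35 epithelium. The summed level of all 12 cartilage genes in the table was 51.0 to 65.6 RPKM in H&H 35 mesenchyme, 94.1 to 100.7 RPKM in H&H 31 mesenchyme, 71.2 to 84.0 RPKM in H&H 35 epithelium and 75.0 to 87.0 RPKM in H&H 31 epithelium. LECT1 and COL11A1 made up most of the sum in mesenchyme. They averaged 15.4 and 33.5 RPKM in H&H 35 mesenchyme, against 44.7 and 42.9 RPKM in H&H 31 mesenchyme. COL11A1 alone made up most of it in epithelium, with 44.5 RPKM at H&H 35 and 62.1 RPKM at H&H 31. SOX9, the transcription factor that switches on the cartilage programme, averaged 0.474 RPKM in H&H 35 mesenchyme and 0.116 RPKM in H&H 31 mesenchyme, and was higher in epithelium, with 13 RPKM at H&H 35 and 8.38 RPKM at H&H 31. COL2A1, the main cartilage collagen, was not analysed here.

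Among the cartilage genes of mesenchyme, LECT1 (chondromodulin) fell by 1.52 and COL9A2 by 1.22 on the log2 scale, and COL9A3 by 0.62. COMP, a pentameric matrix protein of cartilage and tendon, rose by 0.82, SOX6 by 0.78, COL9A1 by 0.62 and SOX9 by 0.40. SOX6 averaged 0.864 RPKM in H&H 35 mesenchyme and 0.0699 RPKM in H&H 31 mesenchyme, low values whose change this scale understates. COL11A1 had a log2 difference of -0.35 (limma adjusted p = 0.0547) and SOX5 one of -0.03 (adjusted p = 0.882). In epithelium COL9A3 rose by 1.54 and SOX9 by 0.58, while LECT1 fell by 0.97 and COL11A1 by 0.47. COL10A1, CHAD and EPYC stayed under 1 RPKM in every library. Several of these calls were not stable. That of SOX9 in mesenchyme (adjusted p = 0.0486) was lost under 10 of 19 alternatives, among them leaving out any 1 of the 4 mesenchyme libraries (adjusted p up to 0.162). Leaving out H&H 31 mesenchyme II also ended those of SOX6, COL9A1 and COL9A3 in mesenchyme (adjusted p up to 0.0670, 0.0914 and 0.0953 over the alternatives). In epithelium the calls of SOX9 and COL11A1 were lost without H&H 31 epithelium I, and also without H&H 35 epithelium II for SOX9 and H&H 35 epithelium I for COL11A1 (adjusted p up to 0.0925 and 0.143).

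The other lecticans and link proteins, 3 of them tested, moved in either direction. VCAN (versican), the hyaluronan-binding proteoglycan of soft tissue, had 30.5 and 42.6 RPKM in H&H 35 mesenchyme and 43.6 and 45.3 RPKM in H&H 31 mesenchyme, a difference that did not pass the test (-0.30, limma adjusted p = 0.287). In epithelium VCAN had 11.1 and 18.1 RPKM at H&H 35, against 69.1 and 68.8 RPKM at H&H 31. It fell there by 2.20 (limma adjusted p = 7.40e-05), next to the fall of HAPLN1 by 1.59. BCAN (brevican) fell by 1.39 in mesenchyme, and HAPLN3, a relative of HAPLN1, rose there by 0.71 (limma adjusted p = 0.0157), which was lost under 4 alternatives, among them leaving out H&H 35 mesenchyme I, H&H 31 mesenchyme I or H&H 31 mesenchyme II (adjusted p up to 0.0994).

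The other matrilins, MATN2 and MATN4, rose in mesenchyme by 1.65 and 0.88, the call of MATN4 being lost without H&H 31 mesenchyme I (adjusted p up to 0.0635). MATN4 also rose in epithelium, with 4.22 ± 0.883 RPKM at H&H 35 and 0.266 ± 0.107 RPKM at H&H 31 (SD, n = 2 each), a difference of 2.04 (limma adjusted p = 8.08e-05). All 4 matrilin genes of the table stayed under 5 RPKM in the group means. In mesenchyme MATN2 averaged 2.58 RPKM at H&H 35 and 0.120 RPKM at H&H 31, a change understated on the log2(RPKM + 1) scale.

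Of 7 other small leucine-rich proteoglycans tested, 4 rose in mesenchyme, and in epithelium 1 rose and 2 fell. ECM2 averaged 38.7 ± 1.37 RPKM in H&H 35 mesenchyme and 16.0 ± 2.70 RPKM in H&H 31 mesenchyme, and 11.9 ± 2.22 RPKM in H&H 35 epithelium and 26.4 ± 2.19 RPKM in H&H 31 epithelium (SD, n = 2 each). Its differences of 1.24 in mesenchyme and -1.09 in epithelium had the signs of those of HAPLN1, a match that was not counted over all genes. KERA (keratocan), best known from the cornea, rose in mesenchyme by 0.67 and PRELP by 0.49, and PRELP fell in epithelium by 0.94. TSKU (tsukushi), a secreted signalling modulator, rose by 0.41 in mesenchyme and 0.42 in epithelium, where the call was lost under 6 of 19 alternatives, scaling to an equal sum and leaving out H&H 35 epithelium II or either H&H 31 epithelium library among them (adjusted p up to 0.0634). The mesenchymal calls of PRELP and TSKU were lost without H&H 35 mesenchyme I or H&H 31 mesenchyme I, and that of TSKU also without H&H 31 mesenchyme II (adjusted p up to 0.0995 for PRELP and 0.0662 for TSKU). The median difference of this list in mesenchyme was 0.41, beside -0.03 over all genes.

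Genes listed for the synthesis of chondroitin and dermatan sulfate, the sugar chains of aggrecan, versican and decorin, either fell or did not pass the test in epithelium. The list is not of enzymes alone and includes SLC26A2, a sulfate transporter. Of 21 tested, 9 fell and 12 did not pass in H&H 35 epithelium, and 9 to 11 fell under the other scalings. Among the 9, the calls of XYLT1 and PAPSS1 were lost under 4 and 2 of 19 alternatives. The median difference was -0.27, beside 0.02 over all genes. CHST3, which sulfates chondroitin, averaged 3.34 RPKM in H&H 35 epithelium and 15.8 RPKM in H&H 31 epithelium (-1.95, limma adjusted p = 1.07e-05), and DSE, the epimerase that makes dermatan from chondroitin, averaged 8.03 and 19.4 RPKM in these groups (-1.17, adjusted p = 9.25e-05). In mesenchyme 3 rose and 1 fell, with a median of 0.02. CHST14, the dermatan sulfotransferase, rose by 1.16, CSGALNACT1 by 0.95 and CHST12 by 0.51, and UST fell by 1.35.

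The heparan sulfate proteoglycans divided in mesenchyme, where 5 of 10 rose and 4 fell. COL18A1, the basement membrane collagen that gives endostatin, averaged 87.9 RPKM in H&H 35 mesenchyme and 12.6 RPKM in H&H 31 mesenchyme and rose by 2.70 (limma adjusted p = 4.76e-07). GPC3, a glypican, rose by 2.31 and TGFBR3 (betaglycan) by 1.36, while SDC1 (syndecan-1) fell by 1.45. In epithelium 2 rose and 4 fell, among them SDC2 with 1.29 and SDC1 with 0.95 upward and COL18A1 with -0.92. Among the falls, the epithelial call of SDC3 was lost under 9 of 19 alternatives and that of AGRN under 1. The call of SDC2 in mesenchyme, a fall of 0.50, was lost under 4 of 19. By sign alone SDC1 matched PODN and COL18A1 matched HAPLN1. How many of all genes have such opposite signs in the tissues was not counted.

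Of 9 tested genes that make, bind or break down hyaluronan, 2 rose and 2 fell in each tissue. CD44, the main hyaluronan receptor, rose by 0.90 in mesenchyme and 0.58 in epithelium. UGDH, which makes the UDP-glucuronate used for hyaluronan and sulfated chains, fell by 0.83 in mesenchyme and 0.54 in epithelium. LYVE1, a hyaluronan receptor of lymphatic vessels and macrophages, rose in mesenchyme by 1.03, and the hyaluronidase HYAL2 fell there by 0.56. The call of HYAL2 was lost without batch II of H&H 35 or of H&H 31 mesenchyme (adjusted p up to 0.0773), and that of CD44 in epithelium without H&H 31 epithelium II (adjusted p = 0.0502). In epithelium HYAL2 instead rose by 0.51 and TMEM2, also of this list, fell by 0.50. These 2 epithelial calls were lost under 3 and 4 of 19 alternatives. Of 5 proteases that cut aggrecan and versican, ADAMTS9 and ADAMTS5 rose in mesenchyme by 1.98 and 0.89 and ADAMTS20 fell by 1.04, while differences in epithelium lay between -0.47 and 0.43 and did not pass.

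**Figure D5:**
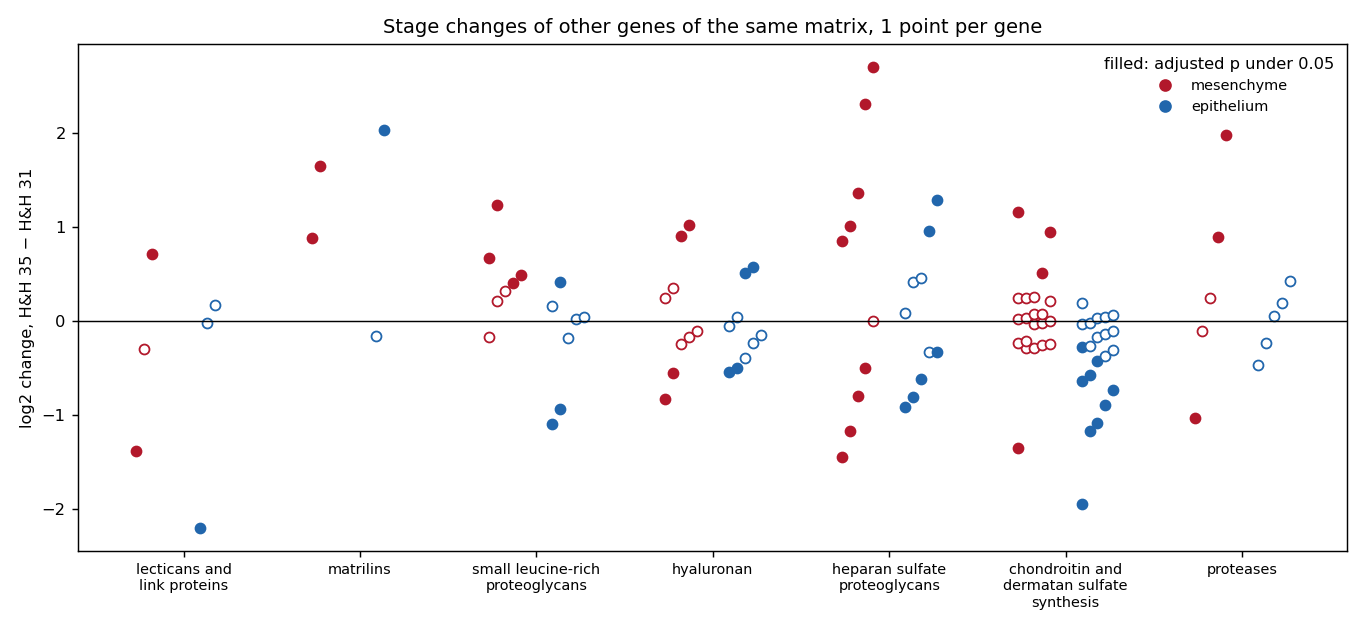
Log2 differences of H&H 35 minus H&H 31 for tested genes of the same matrix outside the 7, in mesenchyme (red, left) and epithelium (blue, right), 1 point per gene and filled where the adjusted p was under 0.05. COL18A1 at 2.70 is the highest point of mesenchyme, and VCAN at -2.20 and CHST3 at -1.95 are the lowest of epithelium.

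Markers of other cell types also moved in mesenchyme. All 4 endothelial genes rose, with a summed level of 96.7 to 107.4 RPKM in H&H 35 mesenchyme and 52.4 to 53.3 RPKM in H&H 31 mesenchyme. All 3 smooth muscle and pericyte genes rose, with 44.2 to 61.2 RPKM at H&H 35 and 2.89 to 3.06 RPKM at H&H 31. Of 7 epidermal genes 5 rose, with 29.5 to 32.8 RPKM at H&H 35 and 9.68 to 15.1 RPKM at H&H 31. These 7 genes rose in epithelium too, where 4 were called higher. Their sum there was 1818 to 2032 RPKM at H&H 35 and 724 to 966 RPKM at H&H 31. Of 3 tendon genes THBS4 rose by 1.75 and TNMD fell by 0.47, a call lost without any 1 of the mesenchyme libraries (adjusted p up to 0.216), and of 8 dermal fibroblast genes 2 rose and 2 fell. The tested skeletal muscle gene, DES, rose by 0.89 (limma adjusted p = 0.0395), a call lost under 11 of 18 alternatives, leaving out H&H 35 mesenchyme I included (adjusted p up to 0.179). None of these lists was at 0 in a group, and their part in the levels of the 7 genes was not tested.

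Across the 8 libraries, which fall into 4 groups and so share their group differences, HAPLN1 and DCN had the closest profiles among the 4 abundant members (r = 0.962 of log2(RPKM + 1)), while PODN and DCN had the most distant (r = -0.195). Such an r compares the shape of profiles and not the size of their differences. Among 10042 genes with a symbol, the profiles nearest to HAPLN1 were those of RNF139 (r = 0.990), TINAGL1 (0.987) and LBH (0.987). RNF139 averaged 18.8 RPKM in H&H 35 mesenchyme and 14.1 RPKM in H&H 35 epithelium, where HAPLN1 averaged 19.0 and 1.15 RPKM. The profiles nearest to DCN were PTPRM (0.978), TRHDE (0.975) and DISC1 (0.968). Nearest to LUM were COL12A1 (0.996), a collagen bound to fibril surfaces, CDR2L (0.995) and SYT11 (0.995). Nearest to PODN were GRIN3A (0.996), MGRN1 (0.995) and DIP2C (0.995). COL12A1 had 139 and 191 RPKM in H&H 35 mesenchyme and 125 and 123 RPKM in H&H 31 mesenchyme, and 0.797 and 1.17 RPKM in H&H 35 epithelium and 7.58 and 6.73 RPKM in H&H 31 epithelium. GRIN3A, a glutamate receptor subunit, had 2.45 and 2.79 RPKM in H&H 35 mesenchyme and 21.8 and 18 RPKM in H&H 31 mesenchyme.

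The position of the genes was looked up by name in the RefSeq annotation of the GRCg7b assembly, in which 7 of 7 were found. LUM and DCN are neighbours there, in the order EPYC, KERA, LUM and DCN. At H&H 35, LUM was 99.8 times as high in mesenchyme as in epithelium and its neighbour KERA averaged 44.3 RPKM in mesenchyme and 0.232 RPKM in epithelium, whereas DCN on the other side was 1.39 times as high in mesenchyme. HAPLN3 lies next to ACAN, and VCAN close to HAPLN1.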

How the data were processed

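Total RNA was made into TruSeq version 2 libraries. The authors trimmed the reads, mapped them to galGal4 (TopHat2 and Partek are named in the submitters' notes; versions and the gene annotation are not given in the sources used here) and deposited RPKM per gene with the count of alignments of each library. Strand was not recorded by this kit, so overlapping or antisense transcripts cannot be told apart.

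The test kept genes that reached 1 RPKM in 2 or more libraries. A mean per group was fitted to log2(RPKM + 1) over all 8 libraries with limma 3.58.1 (eBayes with trend) in R 4.3.3, with p adjusted over all 11155 genes. The fit was tested on simulated data. Differences of low genes are understated on this scale.

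Reads were recovered from the steps of RPKM where all libraries lay within 0.06 of a whole number. This held for MATN1, MATN3, DCN, LUM and PODN. It also held for 1513 of 1810 low genes (83.6%), those under 0.5 RPKM throughout and above 0 in 3 or more libraries. The low genes were searched over fewer step sizes than the members, so that share does not measure the recovery of DCN, LUM and PODN. A factor common to the reads of all libraries cannot be seen this way. ACAN lay within 0.0246 in its 6 low libraries and up to 0.379 off in the others, and HAPLN1 was not recovered. Intervals cover counting error only, and no count model was run.

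The 7 genes and 14 lists were chosen with earlier results of these data known. Named genes are the 7, the called list genes with the largest changes (up to 4 in mesenchyme and 2 in epithelium per list), all cartilage genes and the 3 nearest profiles per tested member. MYOD1, ACTC1, TWIST1 and PDGFRA were named after their values were seen, as were XYLT1, PAPSS1, SDC3, AGRN and TMEM2 for unstable calls. Of 136 list genes 110 are in the table, and others are not analysed here.

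The labels give the replicate numbers as batches shared by all groups. Deviations of same-numbered libraries correlated at 0.316 between the H&H 35 tissues, at 0.194 between the H&H 31 tissues, and at 0.0332 and -0.152 between stages of mesenchyme and epithelium. Alternatives were other pseudocounts, filters, scalings and variance estimates, a replicate block, fewer libraries and leaving out each library.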

Additional observations from a re-analysis of the deposited data

Results flagged for a closer look

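Each of the 4 tested genes changed with stage by a different amount in mesenchyme than in epithelium, by a test of that difference in limma. Subtracting the epithelial from the mesenchymal stage change gave 3.64 for HAPLN1 (adjusted p = 5.24e-05), 2.52 for LUM (adjusted p = 0.000234), 0.62 for DCN (adjusted p = 0.00445) and -4.60 for PODN (adjusted p = 3.82e-06), where 42.4% of all genes passed. Within batch I and batch II the difference was 4.23 and 3.05 for HAPLN1 and 3.07 and 1.97 for LUM. It was 0.76 and 0.47 for DCN and -5.00 and -4.19 for PODN. For each gene the stages did not overlap in either tissue and lay in opposite order. Any pairing of libraries would thus give the same sign. Lack of overlap was common, at 70.5% of all genes by stage in mesenchyme and 69.0% in epithelium. The share of genes without overlap in both tissues and in opposite order was not computed. For HAPLN1 and PODN the changes of the tissues themselves went opposite ways and passed in each.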

How the results depend on the processing

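Under 19 alternatives, 18 of them possible for the comparison of stage changes, no difference of the 4 tested genes changed sign, and those of HAPLN1, LUM and PODN that passed kept doing so. The stage difference of DCN in mesenchyme lost its call under 1 of the 19. Leaving out 1 library gave 2750 to 4531 called genes in the stage comparison of mesenchyme, in place of 4435, with 2856 and 2750 without H&H 31 mesenchyme I and II. In epithelium it gave 2404 to 4128, in place of 3842, with 2404 and 2545 without H&H 31 epithelium I and II and 2554 without H&H 35 epithelium I. With no filter on low values 5 members were called in mesenchyme by stage, where 29.6% of 14642 genes were. Between tissues at H&H 35, 7 members were called without the filter, where 54.8% of genes were. ACAN, MATN1 and MATN3 entered the test under that setting. A replicate block gave 4399, 3810, 6383, 7387 and 4664 called genes in the 5 comparisons in the order stage in mesenchyme, stage in epithelium, tissue at H&H 31, tissue at H&H 35 and difference of stage changes, and it changed no call of a member. Crossed batch numbers, added after seeing the data, gave 3569 of 11155 genes called in epithelium, in place of 3842. They gave 4 called members there, with DCN added to those of the main fit. Scaling to an equal sum moved the median of all genes to 0.01 from -0.10 between tissues at H&H 35 and to 0.10 from -0.05 for the difference of stage changes. Pseudocounts of 0.1 and 0.5 changed the size of the low genes' differences, with 2.45 and 1.2 for ACAN in mesenchyme. Leaving out 1 library, added after seeing the data, put the ACAN read ratio of H&H 35 to H&H 31 mesenchyme between 8.73 and 18.8. Of called list genes, 36 of 54 in mesenchyme and 25 of 37 in epithelium passed under every alternative. With 2 libraries a group, p rests on a spread between replicates that was pooled over the 4 groups and drawn toward the eBayes trend over genes. It reflects these 8 libraries only. ACAN, MATN1 and MATN3 rest on few reads, and stage differences of MATN1 could not be seen at this depth.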
